A study of Mus musculus with 6 samples.

Results

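The organic ion transporters of the Slc17, Slc22 and Slc47 families were compared between liver tumor and normal liver. A gene was taken as a member when its array name, or the current symbol of its probe's accession, began with Slc17a, Slc22a or Slc47a followed by digits, and Slc22a18 was left out. This gave 36 genes, 9 of Slc17, 25 of Slc22 and 2 of Slc47, read by 44 probes, among 34741 gene or design names on the array. The samples were 3 normal livers and 3 liver tumors of male C3H/HeN mice aged 74 to 75 weeks. All were F2 animals of the untreated arm of a study of arsenic given during gestation, raised on standard chow and tap water, and the tumors carried a Ha-ras mutation. The labels do not say whether a tumor and a normal liver came from one animal or whether animals were pooled, so p-values measure only the spread between these samples.

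Liver and kidney clear drugs, metabolites and toxins that are charged in blood, and much of this is done by solute carriers. Slc22 carriers bring organic cations, organic anions and zwitterions such as carnitine into the cell, and Slc47 carriers pump organic cations out in exchange for protons. The Slc17 family holds phosphate and urate type carriers of kidney and liver, the lysosomal sialic acid exporter sialin, and carriers that fill vesicles with glutamate or nucleotides.

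Neighbouring genes of organic anion carriers on chromosome 19 differed in direction, and the probes that read them are given first because the result rests on short sequences within a family of close relatives. Each line holds the first 30 bases of a 60-base probe, 5′ to 3′, on the minus strand, with the mm9 position of the whole probe as the array files give it.
Slc22a26, chr19:7856477-7856536: attctaggaatatttgtctcaactccaatc
Slc22a27, chr19:7938881-7938940: tttttccacttctgtgatataatacctgag
Slc22a28, chr19:8136749-8136808: gagaagaaaattgtattcaggacatggtga
Slc22a28, chr19:8137911-8137970: atgggagtcattggaatgtttggtaatagt
Slc22a29, chr19:8234836-8234895: cacataggaattgctgcaatcgattactat
Slc22a30, chr19:8417813-8417872: cataatttaagtctctctcacactcacagc
The longest run of bases shared by probes of different genes among these was 10, between Slc22a28 and Slc22a29. Whether a probe also binds the transcript of a neighbour was not tested, and which exon each probe reads is not given in the sources used here.

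The 250 bases before the annotated start were available from RefSeq (GRCm38.p6) for 29 of the 36 members. The stretches below are shown because Slc22a28 and Slc22a30 were lower in the tumors and Slc22a29 was higher, while the letters before their starts are alike. They run 5′ to 3′ on the minus strand, end before the start site, and cover the part in which the 3 genes align. Capitals mark matches to a C/EBP pattern.
Slc22a28, chr19:8132001-8132182: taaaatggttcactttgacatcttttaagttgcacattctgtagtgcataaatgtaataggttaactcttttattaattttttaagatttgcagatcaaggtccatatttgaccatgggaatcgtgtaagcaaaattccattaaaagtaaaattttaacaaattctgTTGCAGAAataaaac
Slc22a30, chr19:8405130-8405311: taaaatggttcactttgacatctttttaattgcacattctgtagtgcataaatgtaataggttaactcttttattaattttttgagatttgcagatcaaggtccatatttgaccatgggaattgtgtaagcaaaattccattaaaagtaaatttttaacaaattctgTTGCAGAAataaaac
Slc22a29, chr19:8218901-8219078: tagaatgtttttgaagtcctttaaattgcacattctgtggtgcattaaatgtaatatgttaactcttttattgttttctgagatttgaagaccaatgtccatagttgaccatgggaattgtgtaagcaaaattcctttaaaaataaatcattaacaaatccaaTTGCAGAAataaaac
Slc22a28 and Slc22a30 had the same base at 97.3% of 182 aligned positions. Slc22a29 had the same base as Slc22a28 at 87.0% and as Slc22a30 at 88.7% of 177 aligned positions. With all 250 bases aligned, Slc22a28 and Slc22a30 shared 97.5% of the aligned positions. There Slc22a29 shared 82.2% with Slc22a28 and 78.7% with Slc22a30. Slc22a27, also called higher, shared only 58.6%, 61.1% and 60.1% with Slc22a28, Slc22a29 and Slc22a30.

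Patterns of 7 factors or elements were searched on both strands in the 250 bases before each start. The C/EBP pattern TTGCNNAA was present in 9.56% of all 32851 promoters of the table and in Slc22a6, Slc22a28, Slc22a29 and Slc22a30 among the members. The STAT5 pattern TTCNNNGAA, at 7.02% of all promoters, matched Slc17a1, Slc17a2, Slc17a3, Slc22a15, Slc22a16, Slc22a19 and Slc22a26. The ETS pattern CCGGAA, at 12%, matched Slc17a3, Slc22a2, Slc22a3 and Slc22a4, the FOXA pattern TGTTTAC, at 3.17%, matched Slc17a8, and the TATA box TATAAA, at 12.4%, matched Slc22a22. The HNF4 pattern CAAAGTCCA, at 0.384%, and the AP-1 pattern TGANTCA, at 6.75%, matched no member. A match here is a run of letters and not a measured binding site.

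Each array gave the processed signal of a probe, and the expression value used below is that signal divided by the 75th percentile of its array. Well above background, as the scanner software judges it, were 44.7% to 48.9% of the spots other than controls, and the local background had a median of 42 to 45 on normal liver arrays and of 22 to 23 on tumor arrays. All normal livers were on one slide and all tumors on another, so that slide and tissue cannot be told apart. A group of 3 against 3 arrays allows no exact permutation p below 0.1, and the adjusted p-values below come from limma across all 24879 probes tested. The precision of every value is limited by the number of arrays.

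Markers of hepatocytes were high in both groups. The summed value of 11 hepatocyte genes, of which 1 was called higher and 3 lower, was 9473 to 10479 in normal liver and 9113 to 9633 in tumor. Of the pericentral hepatocyte genes, 8 of 9 tested were called lower in the tumors, and the log2 differences of the 9 ran from -4.31 to -1.58. The pericentral sum was 1357 to 1464 in normal liver and 39.4 to 431 in tumor. That sum came mostly from Cyp2e1, at 1222 to 1265 in normal liver and 32.8 to 383 in tumor. Of the periportal genes, 7 of 9 were called lower, with sums of 2101 to 2293 and 663 to 1035. Cps1 and Pck1, both called lower, are in the periportal list and in the hepatocyte list. Of the Kupffer cell and macrophage genes 5 of 7 were called lower, with sums of 73.2 to 117 and 37.1 to 58.6. The log2 differences of all 7 ran from -1.84 to -0.64. For stellate cell and fibroblast genes the sums were 7.24 to 11.3 and 11.6 to 16.7, with 2 of 7 genes called higher and 2 called lower. The lymphocyte sum of 65.3 to 69.2 in normal liver and 140 to 244 in tumor came mostly from Cd4. The T cell gene Cd3e was well above background on every array, at 5.96 to 7.73 in normal liver and 5.83 to 7.72 in tumor, while Cd8a and Cd3g were not on any tumor array. Limma called 0 of 5 genes of cholangiocytes (0 at an unadjusted p under 0.05), 0 of 4 of neutrophils (1) and 0 of 1 tested of kidney tubule (0), and of 8 endothelial genes 1 higher and 2 lower. Umod, Lrp2, Slc5a2, Cubn and Kap, 5 of the 7 kidney genes, were not well above background on any array. Among all genes tested, 13.1% were called higher and 21.0% lower. The part of these cell types in the results on the transporters was not tested, and in tissue RNA fewer cells of a type and less RNA per cell cannot be told apart.

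Of the 36 member genes, 24 had a signal well above background throughout at least 1 of the groups and were tested. Limma called 15 of these, 5 higher and 10 lower in the tumors. Among all 18552 genes tested, 13.1% were called higher and 21.0% lower, together 34.2%. With the arrays scaled by spike-in controls instead, the share of higher genes among all called genes went from 38.4% to 60.0%, and the median log2 difference of all genes from -0.13 to 0.03. The members' median log2 difference was -0.60, also with Slc22a27 and Slc22a29 taken at their lower bounds, and it was -0.45 with spike-in scaling. Of the members called, 11 had changed by 2-fold or more, 4 higher and 7 lower, where 14.6% of all genes tested were called with such a change, 1446 genes higher and 1270 lower. Among the 4 higher ones, Slc22a26, Slc22a27 and Slc22a29 were not well above background on every normal array. The 3 normal values and the 3 tumor values did not overlap for 19 of the 24, against 51.8% of all genes tested. Since 5 of the 24 were not well above background on some arrays of the group in which they were low, the calls were also counted over the 19 members well above background on all 6 arrays. The counts of 2-fold changes and of groups without overlap were not repeated there. Of the 19 members, 2 were called higher and 8 lower, where 11.1% and 21.2% of all such genes were, together 32.4%.

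**Figure D1:**
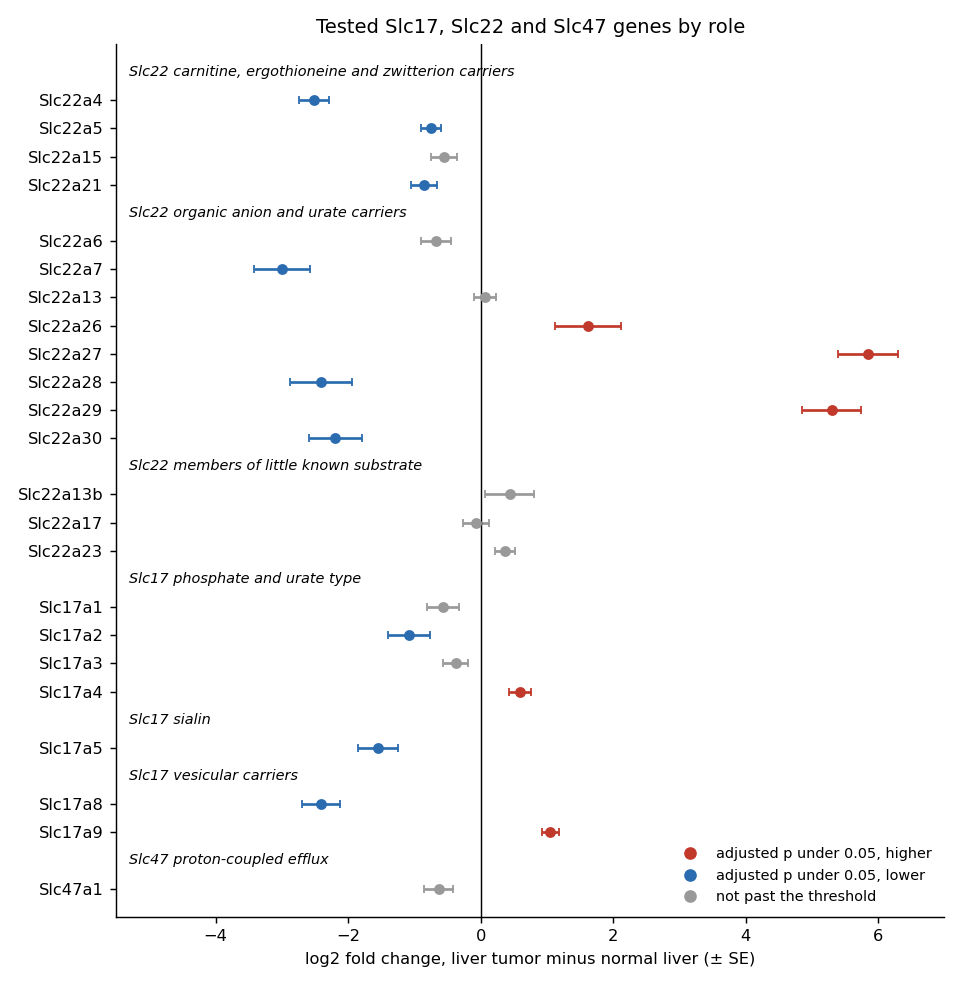
Log2 fold change, liver tumor minus normal liver, of 23 of the 24 tested member genes by role, with points for the limma estimate and bars for its SE from 3 arrays a group. Slc22a27 and Slc22a29 lie farthest to the right, at 5.84 and 5.30, and their normal values were not well above background, so these fitted sizes are not measured folds. Slc22a7 lies farthest to the left at -2.99.

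Of the organic cation carriers, Slc22a2 (OCT2), known from kidney, and Slc22a3 (OCT3), a carrier of monoamines in many tissues, were not well above background on any array. The values of Slc22a3 were 0.0347, 0.0287 and 0.0257 in the normal livers and 0.0244, 0.0227 and 0.0232 in the tumors. Its level is therefore bounded by the background in both groups and no fold is given.

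The carriers of carnitine and ergothioneine on chromosome 11 were lower in the tumors. Slc22a4 (OCTN1), an ergothioneine carrier, had values of 0.901, 0.664 and 0.774 in normal liver and of 0.108, 0.126 and 0.185 in tumor. The groups lay far apart, although only liver tumor 3 of the tumors was well above background. The means were 0.780 ± 0.119 and 0.140 ± 0.0404 (SD, n = 3), and the log2 difference was -2.51 ± 0.23 (limma, adjusted p = 0.000893). With normexp background correction, which compresses dim signals, it was -1.08.

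Slc22a5 (OCTN2), the carnitine carrier whose loss causes systemic carnitine deficiency, had values of 0.482, 0.511 and 0.446 in normal liver and of 0.233, 0.314 and 0.314 in tumor. The groups did not overlap, and the log2 difference was -0.75 ± 0.15 (limma, adjusted p = 0.0131). It was -0.36 with normexp, and the call was lost with spike-in scaling (adjusted p = 0.115), without the filter on dim probes (0.0543) and without normal liver 2 (0.0506). Slc22a21 (OCTN3), a further carnitine carrier, changed by -0.85 ± 0.20 (limma, adjusted p = 0.0201), with 0.210 to 0.327 in normal liver and 0.119 to 0.153 in tumor. It was well above background on only 2 of the 3 tumor arrays. Its log2 difference was -0.32 with normexp, and it lost the call with spike-in scaling (adjusted p = 0.102), without the filter (0.0685) and without liver tumor 1 (0.0518). The change of Slc22a15 did not pass the threshold at -0.56 ± 0.20 (limma, adjusted p = 0.0699), and it did with normal liver 3 left out, at -0.75 (0.0234), or with a trend and robust variances in eBayes (0.0467). Slc22a16, a carnitine carrier known from testis, did not rise well above background on any array.

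Among the organic anion carriers, the largest fall was that of Slc22a7 (OAT2), the hepatic carrier of cyclic nucleotides, orotate and several drugs. Its values were 84.8, 78.9 and 64.6 in normal livers 1, 2 and 3 and 5.23, 9.11 and 17.9 in liver tumors 1, 2 and 3. The lowest normal liver was above the highest tumor, and tumor 1 was the lowest. The means of 76.1 ± 10.4 and 10.8 ± 6.51 (SD, n = 3) gave a log2 difference of -2.99 ± 0.42, a 7.96-fold lower level (limma, adjusted p = 0.00409). It was called under each of the 16 alternatives, at -3.45 to -2.56.

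Slc22a27 did not rise well above background on any normal array, at 0.0459, 0.0783 and 0.0250, and had values of 4.0, 2.02 and 2.11 in the tumors. Slc22a29 behaved alike, with 0.0485, 0.0891 and 0.0291 in normal liver and 2.94, 1.78 and 1.47 in tumor. All 3 tumors were well above background for both genes, and tumor 1 was the highest in each.

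Against the lowest signal that counted as well above background on the normal arrays, Slc22a27 was at least 19.8-fold higher and Slc22a29 at least 15.2-fold higher in the tumors. The adjusted p-values of the fit were 0.000538 for Slc22a27 and 0.000689 for Slc22a29 (limma), and both genes were called under each of the 15 alternatives in which they were tested. Their log2 differences were 2.75 and 2.24 with normexp, against 5.84 and 5.30, which rest on normal signals below that limit. The "at least" folds hold only against that limit, since brighter probes could also be judged not well above background. The stellate cell gene Des, at 0.188 to 0.215 in normal liver, was well above background on only 1 normal array. Slc22a27 and Slc22a29 belong to the organic anion branch of Slc22, and their substrates are less well described than those of Slc22a6 to Slc22a8.

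Slc22a28 and Slc22a30, which lie beside these genes, went the other way. The probe of Slc22a28 with the highest signal gave 20.1, 19.5 and 17.5 in normal liver and 1.61, 5.09 and 5.59 in tumor. Its log2 difference was -2.41 ± 0.46 (limma, adjusted p = 0.0107). The second probe gave 13.6, 13.1 and 11.3 in normal liver and 2.67, 4.11 and 4.81 in tumor, a log2 difference of -1.75 ± 0.23 (limma, adjusted p = 0.00326). Both probes separated the groups, and both were lowest in liver tumor 1.

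Slc22a30 had values of 17.4, 16.1 and 11.5 in normal liver and of 1.70, 4.61 and 4.32 in tumor. The log2 difference was -2.19 ± 0.40 (limma, adjusted p = 0.00924), and tumor 1 was again the lowest. Slc22a28 and Slc22a30 kept their direction and their call under each of the 16 alternatives, with log2 differences of -2.73 to -1.83 and -2.45 to -1.73.

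Slc22a26, the neighbour on the other side, was at the edge of detection. Its values were 0.0357, 0.137 and 0.0676 in normal liver, where only normal liver 2 was well above background, and 0.291, 0.148 and 0.224 in tumor. The gap between normal liver 2 and tumor 2 was small, and the log2 difference of 1.62 ± 0.50 passed the threshold narrowly (limma, adjusted p = 0.0478). It was 0.29 with normexp (adjusted p = 0.116), and the call was also lost with quantile normalization (0.0557) and without the filter on dim probes (0.119). Normal liver 2 could be left out without losing it, and leaving out any other array gave an adjusted p of 0.0584 to 0.118.

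**Figure D2:**
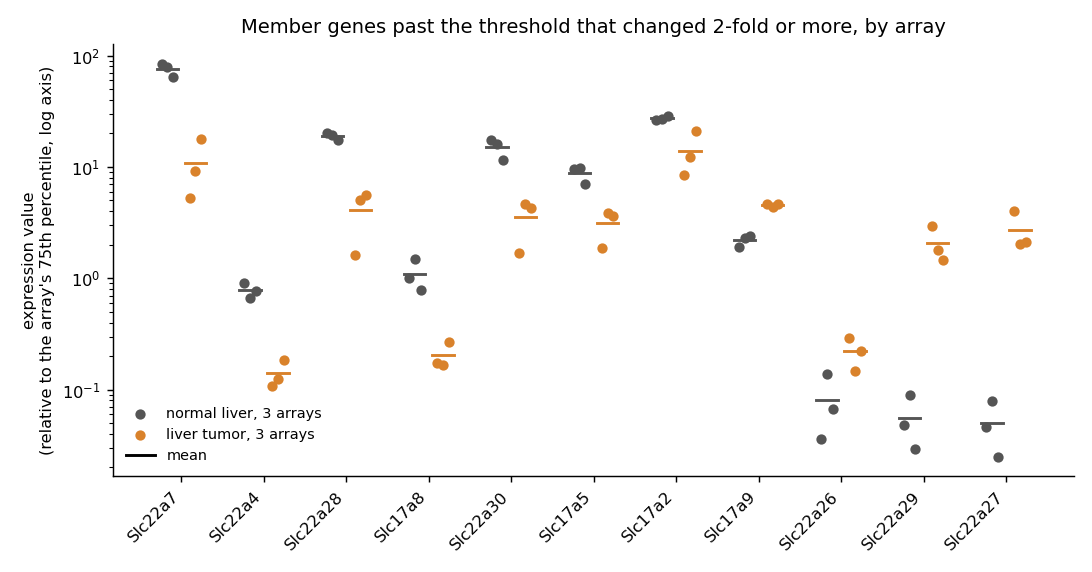
Expression value on a log axis of the 11 member genes called by limma that changed 2-fold or more, with 1 point per array and a line at the mean of 3 arrays. Values of normal liver and tumor do not overlap in any of them, and the nearest are those of Slc22a26, 0.137 in normal liver 2 and 0.148 in liver tumor 2.

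The remaining organic anion carriers were dim. Slc22a6 (OAT1), the kidney carrier of para-aminohippurate, had values of 0.208 to 0.342 in normal liver and 0.152 to 0.203 in tumor, and its log2 difference of -0.67 ± 0.23 did not pass the threshold (limma, adjusted p = 0.0627). It passed with normexp, at -0.39 (0.0495), and without normal liver 3, at -0.90 (0.0202). Slc22a13, which carries urate and nicotinate, had a log2 difference of 0.06 with a 95% interval of -0.34 to 0.47. Slc22a8 (OAT3), Slc22a12 (the urate exchanger URAT1), Slc22a19, Slc22a20 and the prostaglandin carrier Slc22a22 were not well above background on any array.

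Members with little known substrate did not pass the threshold. Slc22a17, described as a receptor of lipocalin 2, had a log2 difference of -0.07 (95% interval -0.54 to 0.41), and the orphan Slc22a23 one of 0.37 (0.003 to 0.74), which passed with normexp at 0.44 (limma, adjusted p = 0.0442). Slc22a13b, annotated as a transcribed pseudogene beside Slc22a13, had 0.44 (-0.45 to 1.33), and liver tumor 1 with 0.848 stood above the other tumors at 0.295 and 0.422. Slc22a14 did not rise well above background on any array.

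The 4 phosphate and urate type Slc17 genes lie side by side on chromosome 13 and did not move together. Slc17a1 (NPT1), which carries urate and phosphate, had values of 5.66, 9.41 and 7.88 in normal liver and of 3.89, 5.64 and 5.81 in tumor. Normal liver 1 lay within the tumor range, and the log2 difference of -0.57 ± 0.24 did not pass the threshold (limma, adjusted p = 0.115).

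Slc17a2 had values of 26.3, 27.2 and 28.7 in normal liver and of 8.46, 12.3 and 20.9 in tumor by its brightest probe. The normal livers were close together, and the tumors were spread widely, all of them below the normal livers. The log2 difference was -1.08 ± 0.31 (limma, adjusted p = 0.0393), and the other probes of the gene gave -1.23 (0.0303) and -1.20 (0.0649). Leaving out any array but liver tumor 3 ended the call, at an adjusted p of 0.0616 to 0.0995, as did quantile normalization (0.0566) and the absence of a filter (0.106).

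Slc17a3 (NPT4), a urate and drug carrier, had values of 23.0, 26.1 and 22.7 in normal liver and of 14.0, 22.2 and 19.96 in tumor. The groups did not overlap, but the log2 difference of -0.38 ± 0.19 did not pass the threshold (limma, adjusted p = 0.174), and a second probe gave 0.10 ± 0.18. Slc17a4, an intestinal and hepatic relative, was higher in the tumors, with 4.56 to 5.78 in normal liver and 6.80 to 9.08 in tumor. Its log2 difference was 0.60 ± 0.17 (limma, adjusted p = 0.0357) and that of its second probe 1.03 ± 0.24 (0.0202). The call on the first probe was lost when any array but normal liver 2 was left out, at an adjusted p of 0.0514 to 0.0995, and without the filter on dim probes (0.116).

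**Figure D3:**
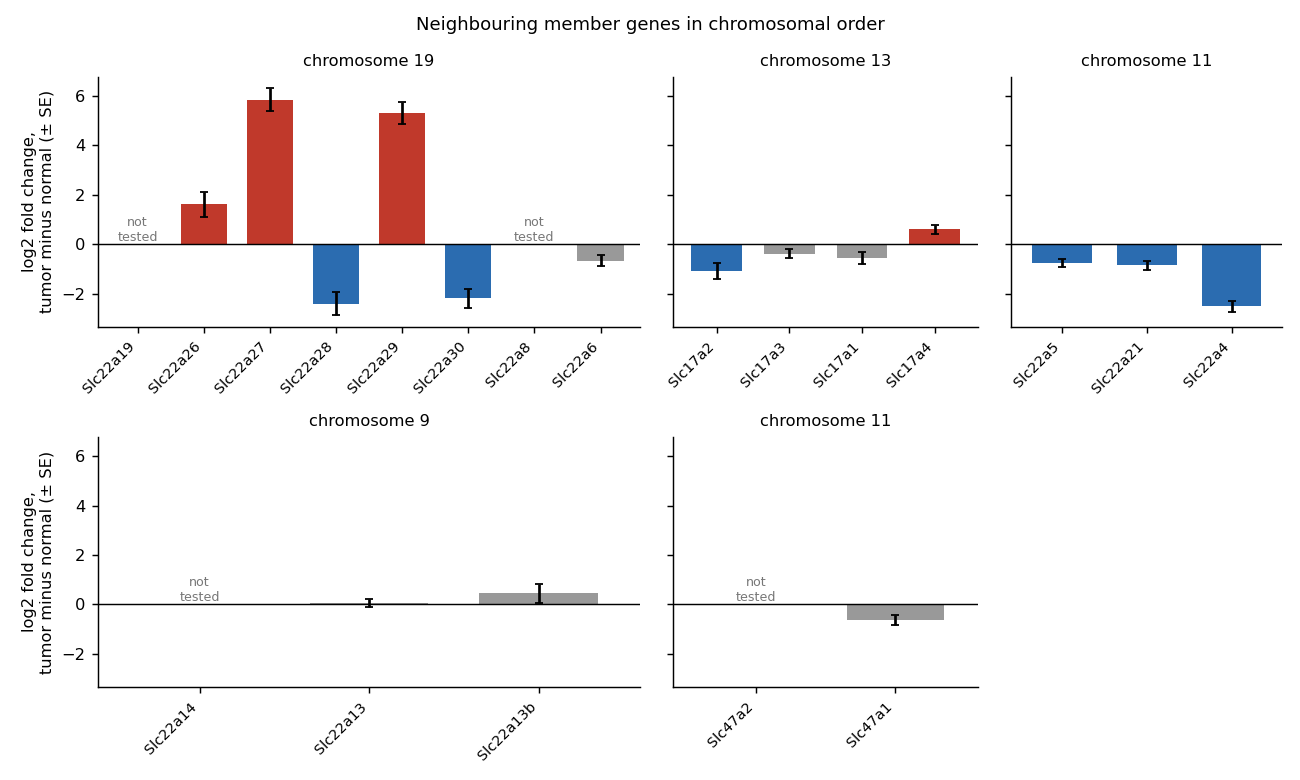
Log2 fold change, tumor minus normal liver, of member genes in 5 of the 6 groups of neighbours at most 500 kb apart, in chromosomal order, with bars for the limma estimate, whiskers for the SE, red for genes called higher, blue for genes called lower and grey for genes not past the threshold. On chromosome 19 the signs run higher, higher, lower, higher, lower from Slc22a26 to Slc22a30, and on chromosome 11 Slc22a5, Slc22a21 and Slc22a4 are all lower.

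By RefSeq gene order, 23 of the 36 members lie in 6 groups whose neighbours are at most 500 kb apart. Of these groups, 2 held at least 1 member called higher and 1 called lower, the 8 genes from Slc22a19 to Slc22a6 on chromosome 19 and the 4 genes from Slc17a2 to Slc17a4 on chromosome 13. The second group counts only through Slc17a2 and Slc17a4, whose calls were each lost in 5 of 6 fits with an array left out. In the first group the plot in chromosomal order shows Slc22a29, called higher, between Slc22a28 and Slc22a30, both called lower.

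Slc17a5 (sialin), which exports sialic acid from lysosomes, was lower by the probe with the higher signal. That probe gave 9.52, 9.69 and 7.05 in normal liver and 1.88, 3.86 and 3.59 in tumor. The groups were well apart, with a log2 difference of -1.55 ± 0.30 (limma, adjusted p = 0.0109). The second probe gave 2.21, 2.16 and 1.82 in normal liver and 1.71, 1.74 and 2.15 in tumor. Its groups overlapped, with a log2 difference of -0.15 ± 0.14 (limma, adjusted p = 0.463), so that the probes of this gene disagreed. The first lies at chr9:78385399-78385458 and the second at chr9:78418831-78418890 (mm9), and which transcripts each of them reads was not tested.

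Of the vesicular carriers, Slc17a8 (VGLUT3), a vesicular glutamate carrier best known from neurons and inner hair cells, was lower in the tumors by both probes. Their first 30 bases and mm9 positions on the minus strand are given here because they gave falls of different size.
A_51_P210350, chr10:89046159-89046218: ttggattttcccataccaaaggagtggcta
A_52_P163021, chr10:89037630-89037689: ctttcttggaaagtatggtcagatgatata
The first gave 0.996, 1.48 and 0.790 in normal liver and 0.174, 0.167 and 0.270 in tumor, and the second gave 1.12, 1.83 and 0.950 in normal liver and 0.0254, 0.185 and 0.229 in tumor. No tumor reached the lowest normal liver by either probe, and the second probe was not well above background in liver tumor 1. The log2 difference was -2.41 ± 0.29 by the first probe (limma, adjusted p = 0.00236) and -3.61 ± 0.83 by the second (0.0188).

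The second probe minus the first, in log2, was 0.17, 0.31 and 0.26 in the normal livers and -2.78, 0.15 and -0.24 in the tumors. The mean of this quantity was 1.20 lower in the tumors, and the exact permutation test gave p = 0.1, the smallest it can give. Without liver tumor 1 the difference was -0.29 and the second probe alone fell by 2.60 on the log2 scale (limma, adjusted p = 0.00324). With normexp the probes gave -1.35 and -1.67. The second probe was not past the threshold without normal liver 1 (adjusted p = 0.0527), without normal liver 2 (0.0634) or without the filter on dim probes (0.0547).

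**Figure D4:**
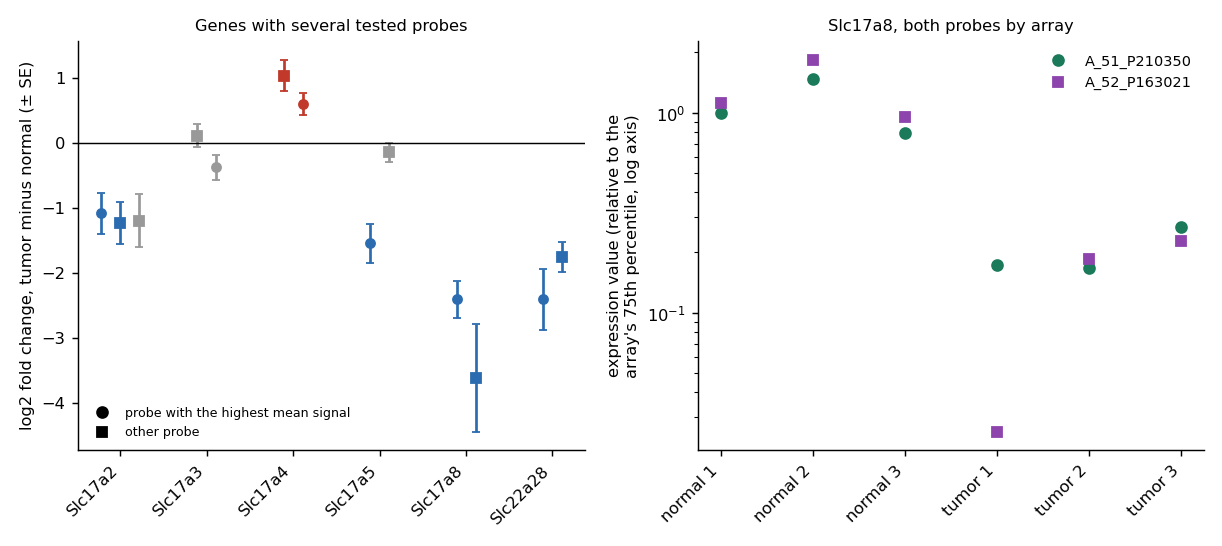
Left, log2 fold change with SE of every tested probe of the member genes that have several, with circles for the probe with the highest mean signal and squares for the others, red for probes called higher, blue for probes called lower and grey for probes not past the threshold. Right, the expression value of both Slc17a8 probes on each array on a log axis, where the probes lie close together except in liver tumor 1, at 0.174 and 0.0254.

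Slc17a9, the vesicular nucleotide carrier that loads ATP, was higher in the tumors. Its values were 1.92, 2.31 and 2.42 in normal liver and 4.67, 4.36 and 4.68 in tumor, and the tumors were close to each other and all above the normal livers. The means of 2.22 ± 0.261 and 4.57 ± 0.184 (SD, n = 3) gave a log2 difference of 1.05 ± 0.13 (limma, adjusted p = 0.00244). It was called under each of the 16 alternatives, at 0.95 to 1.21. Slc17a6 and Slc17a7, the vesicular glutamate carriers of brain, were not well above background on any array.

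Slc47a1 (MATE1), which pumps organic cations such as metformin into bile and urine, had values of 5.63, 7.33 and 4.14 in normal liver and of 3.59, 3.26 and 3.93 in tumor. The groups did not overlap, but normal liver 3 was close to tumor 3, and the log2 difference of -0.63 ± 0.22 did not pass the threshold (limma, adjusted p = 0.0677). It passed with normal liver 3 left out, at -0.84 (0.0255), and with a trend and robust variances in eBayes (0.0408). Slc47a2 was well above background in normal liver 2 and liver tumor 2 alone and was not tested.

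Liver tumor 1 was the lowest tumor for 9 of the 10 members called lower and for 12 of the 24 members tested. The same held for 66.7% of all genes called lower and for 35.7% of all genes tested.

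With the criteria of the study's methods, a ratio of mean values of at least 2 in either direction, a mean over 1.0 for normal liver or tumor, and a p below 0.05 by the methods' t-test, here in an unpaired form, 8 member genes were selected, where 14.1% of the 12008 genes above that level were. These were Slc17a9, Slc22a27 and Slc22a29, higher in the tumors, and Slc17a5, Slc17a8, Slc22a7, Slc22a28 and Slc22a30, lower in the tumors. The methods name the paired form. With the arrays paired by replicate number, 6 of the 8 were selected, and Slc17a8 and Slc22a27 were not. Slc22a4 missed these criteria because its mean in normal liver was under 1.0, and Slc17a2 because its ratio of tumor to normal means was 0.506.

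Other carriers of the hepatocyte were read beside the members. Of 26 tested carriers of anions, cations and drugs from other families, limma called 3 higher and 10 lower, with a median log2 difference of -0.37. Of all genes tested 13.1% and 21.0% were called so, with a median of -0.13. Of those called lower, the largest changes were in the organic anion carriers Slco2b1 at -3.50 ± 0.88 (adjusted p = 0.0257), Slco1b2 at -3.40 ± 0.88 (0.0277) and Slco1a4 at -2.03 ± 0.36 (0.00799). For Slco2b1 and Slco1b2 liver tumor 1, at 0.391 and 6.60, lay far below the other tumors, at 3.41 to 4.49 and 53.3 to 77.6. A further carrier, Slco1a1, fell more, at -4.86 ± 1.64, without passing the threshold (limma, adjusted p = 0.0626). It was well above background on only 2 of the 3 tumor arrays. The higher ones were the efflux pumps Abcc5 at 3.24 ± 0.26 (0.000582) and Abcb1a at 2.86 ± 0.20 (0.000375) and the monocarboxylate carrier Slc16a7 at 1.91 ± 0.12 (0.000267). The count of lower ones was 6 without the filter on dim probes and 5 without normal liver 2.

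Of 11 genes of carnitine supply and use, 1 was called higher and 4 lower, together 45.5%, where 34.2% of all genes tested were called. Their median was -0.24. Cpt2, the inner mitochondrial carnitine palmitoyltransferase, was lower at -1.21 ± 0.17 (limma, adjusted p = 0.00381), Bbox1, the last enzyme of carnitine synthesis, at -1.10 ± 0.18 (0.00619), and the peroxisomal Crot at -0.78 ± 0.13 (0.00690). Cpt1a, the outer membrane enzyme, was higher at 0.80 ± 0.23 (0.0381), and was not past the threshold when any array but liver tumor 2 was left out or without the filter on dim probes. The count of lower ones was 2 with spike-in scaling, beside 2 higher.

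Of 12 tested genes of purine breakdown and urate, 1 was called higher and 3 lower, together 33.3%, where 34.2% of all genes tested were called. Their median was -0.41. Nt5e, the ectonucleotidase that makes adenosine from AMP, was higher at 2.83 ± 0.40 (limma, adjusted p = 0.00400). Urah at -1.25 ± 0.16 (0.00299) and Urad at -1.25 ± 0.25 (0.0126), which act after urate oxidase, and adenosine deaminase Ada at -1.07 ± 0.18 (0.00705) were lower. The count of lower ones was 6 with a trend and robust variances in eBayes.

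Of 18 tested regulators and scaffolds of these carriers, 1 was called higher and 7 lower, together 44.4%, where 34.2% of all genes tested were called. Their median was -0.39. Nfe2l2, the antioxidant response factor, was higher at 1.02 ± 0.18 (limma, adjusted p = 0.00820). Lower were Bcl6, a repressor known for sex-biased liver genes, at -2.99 ± 0.59 (0.0116), the xenobiotic receptor Nr1i3 at -2.35 ± 0.23 (0.00131) and the bile acid receptor Nr1h4 at -1.22 ± 0.23 (0.0101). Of the listed factors whose patterns were searched in the promoters, Hnf4a at 0.16 ± 0.14 (0.436), Foxa2 at -0.32 ± 0.21 (0.290) and Cebpa at -0.40 ± 0.25 (0.262) did not pass the threshold, while Stat5b at -0.78 ± 0.17 (0.0161) and Cebpb at -0.74 ± 0.22 (0.0422) did. The count of lower ones was 3 with spike-in scaling, and 4 without the filter on dim probes or without normal liver 2.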

How the data were processed

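Total RNA of 3 normal livers and 3 liver tumors was labelled with Cy3 and hybridised to SurePrint G3 Mouse GE arrays. For each array the authors deposited the Feature Extraction output (version 10.7.3.1 per the file headers, 12.0.3.1 in the submitters' processing notes), which gives a processed intensity, corrected by the software for background and spatial trend. They also deposited a table of ratios in which each processed signal is divided by its array's 75th percentile over all spots.

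The intensities were divided by that percentile and put on the log2 scale, leaving out control and outlier spots and averaging spots of a probe. Of 55681 probes, the 24879 well above background throughout at least 1 of the groups were tested with limma 3.58.1 (R 4.3.3) in a two-sided test, Benjamini-Hochberg adjusted over these probes, at a threshold of 0.05. A gene was its tested probe with the highest mean log2 signal. For a probe below that limit on every array of a group, "at least" folds were taken against the larger of the probe's own signal and the lowest signal judged well above background on each array. For the criteria of the study's methods, which name a paired test, an unpaired t-test on linear values was used because the labels tie no tumor to a normal liver, with the paired form as an alternative. Tables and figures were made with Python 3.11.15, pandas 2.3.3, scipy 1.17.1, matplotlib 3.10.9 and, for alignments, biopython 1.88. Probes were named through RefSeq (GRCm38.p6) by accession for 27229, symbol for 3586 and synonym for 565, and by the array design for 24301. No genome was used here.

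Values on every array are given for members called with a 2-fold change and for Slc22a3, Slc22a5, Slc22a7, Slc47a1, Slc17a1, Slc17a2, Slc17a3 and Slc17a8, and from each list of other genes the 3 called with the largest change in each direction. Hnf4a, Foxa2, Stat5b, Cebpa and Cebpb were named for their promoter patterns, and Slco1a1 for a larger fall that did not pass the threshold. The values of 1 member and of 1 regulator, which stay in the counts, are not reported here. The members and lists were chosen with earlier results of these data known. In a simulated comparison of 3 against 3 arrays over 24867 probes, 66 probes were changed 2-fold, 67 were changed 4-fold and 67 were changed 8-fold. Of these, 48.5%, 80.6% and 97.0% were called, beside 7 false calls. Far fewer probes were changed there than were called in the data, so these rates need not hold for the real comparison. Alternatives were quantile normalization, background correction by normexp (offset 50), the percentile over non-control spots, scaling by 7 spike-in probes, no filter and a stricter filter on dim probes, the deposited ratios, a block for the replicate number, eBayes with trend and robust variances, the mean of a gene's probes, a 2-fold threshold, and leaving out each array.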

Additional observations from a re-analysis of the deposited data

How the results depend on the processing

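Over the 24 members tested and 16 alternatives, 329 of the values kept direction and side of the threshold, 37 lost the call, 9 gained it and 4 changed sign. The sign changes were those of Slc22a13, to -0.050 with normexp and -0.047 without liver tumor 2 (-0.047 to 0.23 over the arrays left out), and of Slc22a17, to 0.088 with spike-in scaling and 0.14 without liver tumor 3 (-0.23 to 0.14), none past the threshold in either direction. The 5 genes called higher became 3 without a filter on dim probes, 2 when only probes well above background on all 6 arrays were tested (which leaves out Slc22a26, Slc22a27 and Slc22a29), 3 with the replicate block and 3 to 5 with an array left out. The 10 called lower became 6 without the filter, 12 with the replicate block and 7 to 11 with an array left out. The replicate numbers were not taken as pairs, since same-numbered arrays had correlations of deviations of 0.07, 0.13 and 0.05. With the block Slc17a1 (limma, adjusted p = 0.0338) and Slc22a15 (0.0487) gained the call, and Slc17a4 (0.0723) and Slc22a26 (0.0970) lost it. The 8 genes selected by size, level and unpaired test stayed at 6 to 9, with 6 for the paired form. Signals below the lowest signal well above background, 0.101 to 0.148 on these arrays, bear on the size of the changes of Slc22a27, Slc22a29, Slc22a26, Slc22a4 and the second Slc17a8 probe. The cause of the other changes was not tested.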
